A study of Mus musculus with 24 samples.

Results

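The control cells of a knockdown experiment in primary mouse brite adipocytes were compared between 24 h and 72 h after transfection, to describe how these cells matured without knockdown. Brite adipocytes arise in white fat depots and can burn fuel to release heat, as brown fat cells do. All 12 samples that received the nontargeting control (NC) were taken by their titles, 6 at each time, out of 24 samples in the series. The other 12 samples received an antisense oligonucleotide against the long noncoding RNA Ctcflos (KD) and enter a single comparison at the end. Preadipocytes had been isolated with the stromal vascular cells of inguinal white fat of 129SvEv mice, induced for 2 days and kept for 1 day of differentiation with rosiglitazone, an activator of the nuclear receptor PPARγ. They were then replated onto 50 nM of a nontargeting locked nucleic acid gapmer, a short oligonucleotide of the kind that directs RNase H to a matching RNA. NC 24 h and NC 72 h thus share strain, depot, drug and oligonucleotide and differ in harvest time. They differ also in medium, since by the study's methods only the cells kept beyond 24 h received fresh differentiation medium. Untransfected cells were not analysed here. Time in differentiation, time since transfection and this change of medium therefore cannot be told apart in any result that follows. The labels do not say whether the samples of a group came from separate animals or cultures. The study calls the replicates of such knockdown experiments biological. As the labels leave it unstated, p-values measure the spread between these samples, which may be technical.

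As background, a preadipocyte that becomes a fat cell first loads triglyceride under the control of PPARγ and C/EBPα and secretes adipokines such as adiponectin. Under rosiglitazone, cells of the inguinal depot in addition switch on the mitochondrial uncoupling protein Ucp1 and the genes that accompany it in brown fat. Transfected nucleic acid can be sensed by cells and lead to secretion of type I interferon, which acts through transcription factors such as STAT2 and IRF9 on a large family of antiviral genes.

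Transcript abundance was measured by sequencing the 3′ ends of transcripts and is given in RPKM, reads per kilobase of transcript relative to all mapped reads, scaled between samples. Since 3′ reads were divided by the whole transcript length, levels of different genes are not compared here. The 12 libraries held 2906381 to 5423840 mapped reads, recovered from the steps of the deposited values, with a median of 3819190. For a 2 kb transcript the limit of detection, taken as 3 reads, lay at 0.277 to 0.516 RPKM. NC 72 h replicates 2 and 3 differed by less than the sampling noise, with a squared difference of 0.355 of that noise against 1.94 or more in every other of the 276 pairs of libraries. They were averaged and counted as 1 sample, so that n = 6 at 24 h and n = 5 at 72 h. By their deviations from the mean of their group, the 24 libraries fell into 2 clusters, of 16 and 8 libraries, and the smaller one held NC 24 h replicates 5 and 6 and NC 72 h replicates 4 and 5. No label explains this split, and changes are also given within each cluster where they differ. Values at 72 h are listed in the order replicate 1, the mean of replicates 2 and 3, and replicates 4, 5 and 6, so that the third and the fourth value belong to the smaller cluster.

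The samples carried the defining transcripts of fat cells, since all 8 adipocyte markers were measured, with a summed level of 47880 to 50470 RPKM at 24 h and 34520 to 45620 RPKM at 72 h. Most of this sum was Fabp4, at 42080 to 44698 RPKM at 24 h and 29663 to 40617 RPKM at 72 h. Markers of other cell types were measured as well. The sum of 8 lymphocyte markers was at most 0.175 RPKM in any sample, with Cd3e, Cd3g, Cd79a, Ms4a1, Nkg7 and Ltb among those at 0 in all 11, and the sum of 10 endothelial markers ranged from 1.97 to 4.94 RPKM, with Vwf at 0. The 9 mural markers summed to 8.8 to 25 RPKM at 24 h and 7.21 to 12.2 RPKM at 72 h, and the 9 of skeletal muscle to 7.34 to 36.2 RPKM and 5.49 to 21.7 RPKM, with Myod1, Myf5, Actn2 and Pax7 at 0. Fibroblast and progenitor markers, which the cultures also expressed, are given with the matrix genes. Markers of macrophages summed to 7.76 to 48.1 RPKM at 24 h and 12.8 to 50.2 RPKM at 72 h. Those of epithelial and mesothelial cells summed to 18.3 to 25.3 RPKM and 19 to 38.5 RPKM, with Epcam, Krt8, Krt5, Cdh1, Msln and Upk3b at 0. Most of this sum was Krt19, at 17.8 to 26.5 RPKM over both times. Some markers differed between the clusters of libraries. In the smaller cluster the macrophage marker Lyz2 measured 19.6 and 22.7 RPKM at 24 h and 19.4 and 24.6 RPKM at 72 h. The larger cluster had 3.61 to 8.925 RPKM. Tyrobp and the muscle marker Acta1 were also higher in every sample of the smaller cluster, whereas Csf1r and Cd52 did not follow the clusters. In bulk RNA, fewer cells of a type and less RNA per cell cannot be told apart.

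Between 24 h and 72 h, 1070 of 11219 genes passed the test at an adjusted p under 0.05, or 9.54% of those tested. Of these, 527 rose (4.70%) and 543 fell (4.84%), and 154 and 218 of them did so by 1 or more on the log2 scale. The median log2 fold change over all genes tested was close to 0 (-0.003), and the called genes had a median absolute change of 0.77. For 415 genes (3.70%) every 72 h sample was above every 24 h sample, and for 451 genes (4.02%) every 72 h sample was below. Of 181 named genes called, 134 kept the call whichever single sample was left out, and the other 47 lost it without at least 1 sample. The calls were followed within the clusters, which are parts of the same samples, so that agreement in sign is no independent check. Of the called genes with a value there, 1069 of 1069 had the same sign in the larger cluster alone and 1059 of 1061 in the smaller cluster alone, where 795 and 329 were also called. The number of calls itself was 1268 in the larger and 460 within the smaller cluster, in which 2 samples stood against 2.

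Interferon-stimulated genes such as Rsad2, Mx1 and Ifit1 were among the strongest falls, and Ucp1 and Cidea were among the strongest rises. Among genes above 5 RPKM on average whose groups did not overlap, the 10 largest falls were those of Gm14446 (Ifit1bl1 in RefSeq), Rsad2, Mx1, I830012O16Rik (Ifit3b), Cxcl10, Ifit3, Gm12250, Oasl1, Gm4841 and Ifit1, at -3.91 to -3.05 on the log2 scale. The 10 largest rises were those of 4631405J19Rik, Pdzk1ip1, H2-Q7, Lrg1, Ucp1, Cidea, Pltp, Cercam, Spp1 and Tmem45b, at 2.71 to 1.94. As their groups did not overlap, the sign within either cluster was fixed by the choice of these 20. Those with the smallest p-values were other genes, whose change was steadier between samples. Ncam1, a neural cell adhesion molecule, measured 10.9 to 13.1 RPKM at 24 h, with a median of 12.6, and 47.5, 63.7, 35.9, 43.6 and 39.4 RPKM at 72 h (log2 fold change 1.85 with SE 0.13, adjusted p = 8.25e-06). Gsn, the actin-severing protein gelsolin, measured 766 to 906 RPKM at 24 h, with a median of 826, and 294, 324, 343.5, 359 and 306 RPKM at 72 h (log2 fold change -1.35 with SE 0.07, adjusted p = 3.43e-07). In neither gene did the groups come near each other. Olfml3, Fbln2, Bdh2 and Mmp11 were the next by p among the genes that rose, at 1.19, 1.03, 1.65 and 1.65. Among the genes that fell, Lpar6, a receptor for lysophosphatidic acid, changed by -1.30, Daxx by -2.04 and H2-T24 by -2.41. The remaining entry, at -1.50, is a transcript of Rb1 that overlaps Lpar6 on the opposite strand. Strand handling was not stated, and reads of these entries cannot be told apart.

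**Figure D1:**
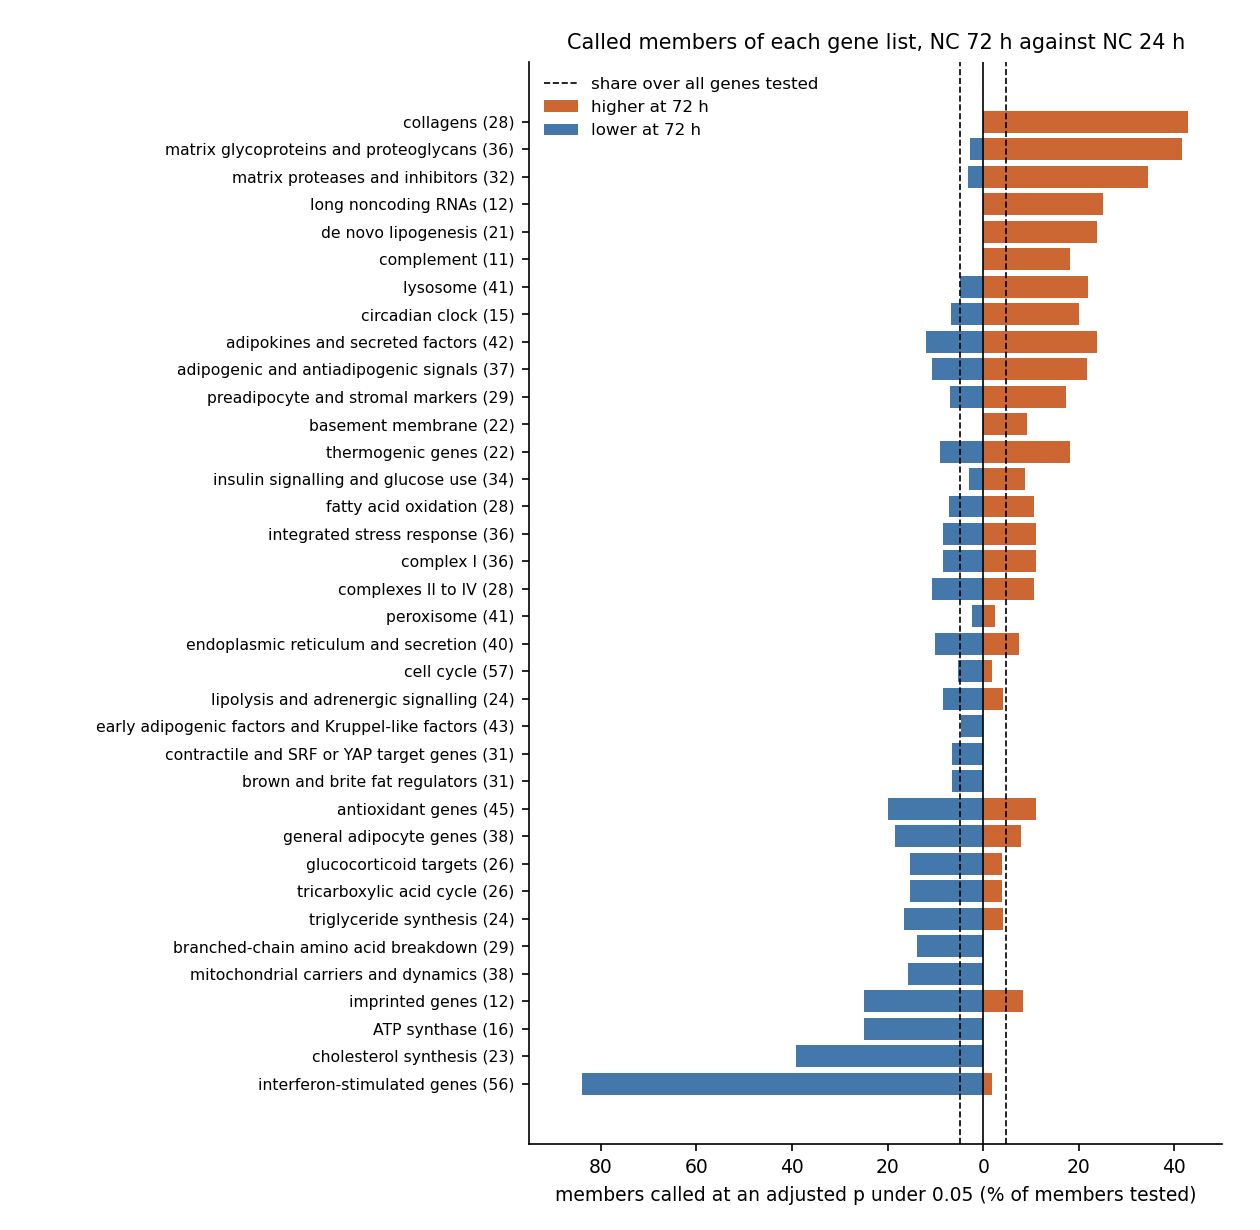
Percentage of each gene list's tested members (their number in brackets) that were called higher (bars to the right of 0) or lower (bars to the left) at 72 h, with dashed lines at the shares over all genes tested, 4.70% and 4.84%. The interferon-stimulated genes reach 83.9% lower, the collagens 42.9% and the matrix glycoproteins 41.7% higher. Cholesterol synthesis reaches 39.1% lower and the matrix proteases and inhibitors 34.4% higher. The other bars reach at most 25.0% on either side.

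The thermogenic genes did not move together. Of all genes, 4.70% rose and 4.84% fell. Of 22 thermogenic genes tested among 29 listed, 4 rose (18.2%), 2 fell (9.09%) and 16 did not pass the test. The list's median was 0.08 against -0.003 over all genes. Those that rose were Ucp1, which lets protons leak across the inner mitochondrial membrane to release heat, Cidea, a lipid droplet protein of brown and brite fat, and the cytochrome c oxidase subunit isoforms Cox8b and Cox7a1. Those that fell were the coactivator Ppargc1b and the receptor Adrb3, through which noradrenaline activates lipolysis.

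Ucp1 measured 73 to 188.5 RPKM at 24 h, with a median of 135.5, and 835, 757, 569.9, 543 and 770.5 RPKM at 72 h. This is a 5.55-fold rise (log2 fold change 2.47 with SE 0.25, adjusted p = 6.31e-05). The lowest 72 h sample was above the highest 24 h sample, and the rise was 2.30 in the larger and 2.92 within the smaller cluster on the log2 scale. Cidea measured 10.4 to 27.2 RPKM at 24 h, with a median of 16.4, and 119, 98, 61, 55.4 and 96.7 RPKM at 72 h, a 4.96-fold rise (log2 fold change 2.31 with SE 0.24, adjusted p = 6.96e-05). Its groups did not overlap either, with the 2 samples of the smaller cluster lowest at 72 h. Cox8b measured 351, 257, 266, 309 and 348.5 RPKM at 72 h, after 98.6 to 174 RPKM at 24 h with a median of 108 (log2 fold change 1.31 with SE 0.17, adjusted p = 2.47e-04). Cox7a1, the isoform of heart, muscle and brown fat, measured 881, 826, 437, 497 and 733 RPKM at 72 h, after 262 to 486 RPKM at 24 h with a median of 399 (log2 fold change 0.82 with SE 0.21, adjusted p = 0.0227). Its groups overlapped, since NC 72 h replicate 4 lay within the range at 24 h, and the call was lost without NC 72 h replicate 1, the mean of replicates 2 and 3, or replicate 6. Ucp1, Cidea and Cox8b kept their calls in all 29 alternatives.

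No listed regulator of the programme rose. Ppargc1a, the coactivator of mitochondrial genes, measured 3.91 to 6.52 RPKM at 24 h, with a median of 4.93, and 3.49, 3.8, 3.32, 3.69 and 3.35 RPKM at 72 h, and the groups did not overlap, but the change missed the threshold (log2 fold change -0.49 with SE 0.15, adjusted p = 0.0595). Prdm16, which drives the brown fate, measured 0.822, 0.859, 0.80, 1.12 and 0.404 RPKM at 72 h, after 1.08 to 2.12 RPKM at 24 h with a median of 1.45 (log2 fold change -0.86 with SE 0.27, adjusted p = 0.0632), with NC 72 h replicate 5 inside the range at 24 h. Ppargc1b went from 9.52 ± 1.89 RPKM at 24 h to 5.92 ± 1.11 RPKM at 72 h (SD, log2 fold change -0.67 with SE 0.18, adjusted p = 0.0282), and Adrb3 from 17.2 ± 3.2 RPKM at 24 h to 12.3 ± 0.684 RPKM at 72 h (SD, log2 fold change -0.46 with SE 0.13, adjusted p = 0.0403). These calls depended on single samples. Ppargc1b lost its call in 13 of 29 alternatives, among them without any 1 of NC 24 h replicates 2 to 6, NC 72 h replicates 4 and 5 or the mean of 2 and 3. Adrb3 lost it in 15, among them without any 1 of NC 24 h replicates 2 to 5 or of the 72 h samples. Over all genes 4.70% rose and 4.84% fell. Among 31 tested genes of 40 listed as regulators of brown and brite fat, 0 rose and 2 fell (6.45%), with a median of -0.17. Besides Ppargc1b this was Rxrg, a retinoid X receptor that pairs with PPAR and thyroid hormone receptors. It measured 20.5 to 31.5 RPKM at 24 h, with a median of 24.7, and 11, 11.2, 7.45, 8.0 and 11.2 RPKM at 72 h, a 2.56-fold fall (log2 fold change -1.35 with SE 0.15, adjusted p = 1.25e-04), with every 72 h sample below every 24 h sample. Pparg, Cebpa and Cebpb changed by -0.04, -0.31 and 0.00 with adjusted p of 0.845, 0.208 and 0.999. Elovl3, a fatty acid elongase of brown fat, changed by 0.26 (SE 0.17, adjusted p = 0.377) and Cpt1b, the muscle and brown fat form of carnitine palmitoyltransferase, by 0.02 (SE 0.11, adjusted p = 0.939).

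**Figure D2:**
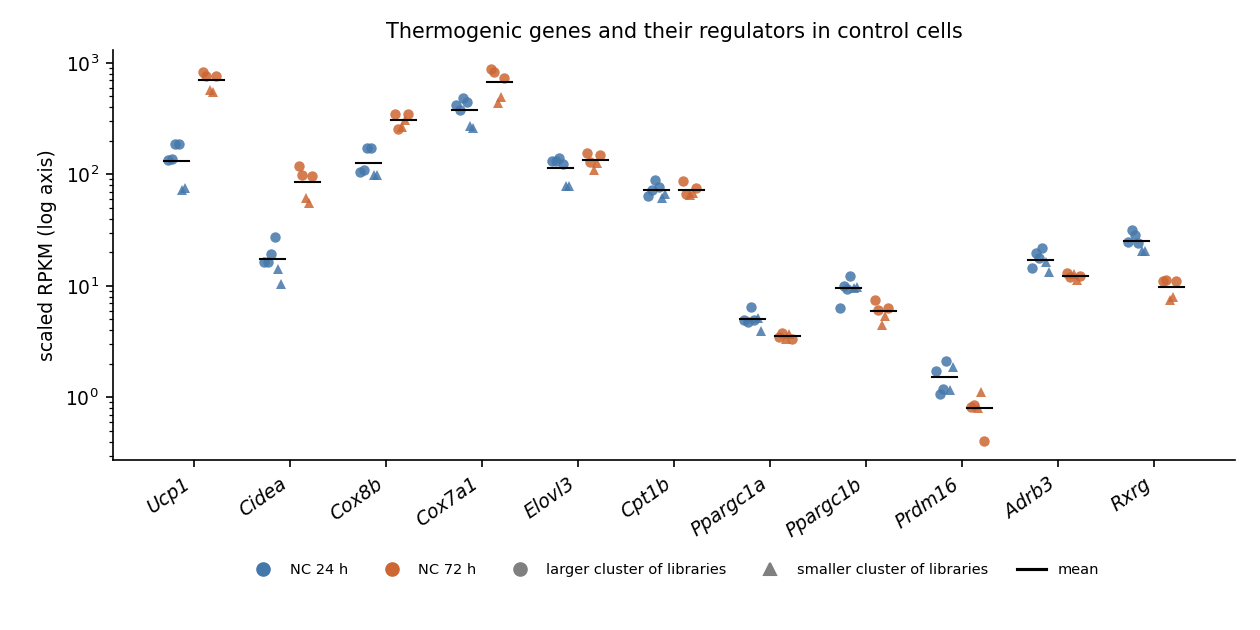
Scaled RPKM on a log axis of 11 thermogenic genes and their regulators in the 6 samples of NC 24 h and the 5 of NC 72 h, with circles for the larger and triangles for the smaller cluster of libraries and a bar at each mean. Ucp1, Cidea and Cox8b lie higher in all 72 h samples, whereas Ppargc1a and Rxrg lie lower.

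Genes of mature fat cells in general were more often lower than higher at 72 h, with a larger shift in the smaller cluster. Of 38 tested among 42 listed, 3 rose (7.9%), 7 fell (18.4%) and 28 did not pass the test. The shares over all genes were 4.70% and 4.84%. The list's median was -0.18, at -0.07 in the larger and -0.26 in the smaller cluster. Relative to the 24 h mean, the 72 h samples had medians of -0.039, -0.05, -0.39, -0.287 and -0.045. Adipoq, which encodes the hormone adiponectin, measured 2413 to 2601 RPKM at 24 h, with a median of 2466, and 1846, 1786, 1900, 1846 and 1784 RPKM at 72 h, a fall of 1.36-fold (log2 fold change -0.45 with SE 0.05, adjusted p = 1.53e-04). The samples of each group lay close together and the groups were far apart. Car3, an abundant carbonic anhydrase of fat, measured 3211 to 3961 RPKM at 24 h, with a median of 3301, and 863, 732, 1431, 1514 and 1022 RPKM at 72 h (log2 fold change -1.67 with SE 0.16, adjusted p = 5.68e-05), with the 2 samples of the smaller cluster highest at 72 h. Fabp4, the fatty acid binding protein of adipocytes, went from 42870 ± 939.8 RPKM at 24 h to 35450 ± 4655 RPKM at 72 h (SD, log2 fold change -0.28 with SE 0.08, adjusted p = 0.0469), a call that was lost in 18 of 28 alternatives, among them without any 1 of the 24 h samples or of NC 72 h replicates 4, 5 and 6. Cav1, the coat protein of caveolae, Adig, Aqp7, the glycerol channel, and Cd1d1 fell by 0.60, 0.51, 0.40 and 0.36 on the log2 scale. Genes of lipid storage and release such as Plin1, Lpl, Cd36, Pnpla2 and Lipe were between -0.38 and -0.07 with adjusted p from 0.0746 to 0.858. Acvr1c, an activin receptor of adipocytes, and Pnpla3 rose by 0.57 and 0.44, and the third gene that rose, Hp, is described with the acute-phase genes. The count of 3 was 1 without NC 24 h replicate 3, 5 or 6 or NC 72 h replicate 1, 6 or the mean of 2 and 3. Lep was at 0 in 9 of 11 samples and at most 0.365 RPKM in the others. Dlk1, a marker of preadipocytes, reached 0.155 to 1.13 RPKM, and neither gene had enough reads for the test.

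Some enzymes that make fatty acids from acetyl groups rose. Of 21 tested among 23 genes of de novo lipogenesis, 5 rose (23.8%) and 0 fell, against 4.70% and 4.84% of all genes. The list's median was 0.06. Thrsp, a regulatory protein of lipogenesis, measured 279.6 to 828 RPKM at 24 h, with a median of 678, and 1584, 1066, 1282, 1496 and 1591 RPKM at 72 h (log2 fold change 1.36 with SE 0.28, adjusted p = 0.00723). Its groups did not overlap, and it kept its call in all 29 alternatives. Scd1, which desaturates stearate, went from 1113 ± 244 RPKM at 24 h to 1946 ± 615 RPKM at 72 h (SD, log2 fold change 0.77 with SE 0.21, adjusted p = 0.0302), Fasn, the fatty acid synthase, from 51.1 ± 11.1 RPKM at 24 h to 81.3 ± 22.7 RPKM at 72 h (SD, log2 fold change 0.65 with SE 0.19, adjusted p = 0.0444), and Acss2 and Acaca rose by 0.66 and 0.52. Instead of 5, only 1 was called without NC 72 h replicate 1 or without replicate 6, 2 without NC 24 h replicate 2, 5 or 6 or the mean of NC 72 h replicates 2 and 3, and 3 without NC 24 h replicate 1. Of 24 tested among 25 genes of triglyceride synthesis, 1 rose (4.17%) and 4 fell (16.7%). The gene that rose was Mogat1, a monoacylglycerol acyltransferase, with 8.34, 8.44, 4.97, 3.3 and 6.49 RPKM at 72 h, after 0 to 2.37 RPKM at 24 h with a median of 1.2 (log2 fold change 2.90 with SE 0.69, adjusted p = 0.0168), and those that fell were Agpat9 (Gpat3 in RefSeq), Dgat1, Agpat3 and Aqp7, by 0.54 to 0.40 on the log2 scale. Pck1, the glyceroneogenic enzyme, changed by 0.42 (SE 0.20, adjusted p = 0.215).

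Genes of cholesterol synthesis were shifted downwards. Of 23 tested among 26 listed genes, 9 fell and 0 rose against 4.84% and 4.70% of all genes, 23 of 23 fold changes were below 0, and the list's median was -0.30 (-0.25 in the larger cluster, -0.40 in the smaller). Cyp51, which demethylates lanosterol, measured 18.8, 17.3, 20.4, 19.4 and 18.1 RPKM at 72 h, after 25.2 to 29.1 RPKM at 24 h with a median of 28 (log2 fold change -0.56 with SE 0.08, adjusted p = 8.98e-04). Every 72 h sample was below every 24 h sample. Also called were Mvk, Dhcr7, Nsdhl, Pmvk, Lss, Hsd17b7 and Hmgcs1, at -0.69 to -0.32. Between 6 and 9 were called when 1 sample was left out, 3 in the larger and 4 in the smaller cluster alone.

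Mitochondrial transcripts fell more often than they rose, by small amounts. Over the tricarboxylic acid cycle, complex I, complexes II to IV, ATP synthase and the carriers, 140 genes were tested, of which 8 rose (5.71%) and 19 fell (13.6%) against 4.70% and 4.84% of all genes, at a median of -0.07. Complex I had 4 that rose and 3 that fell of 36 tested, the largest change being that of Ndufab1, the acyl carrier protein, at -0.86. With the highest entry of any source this gene changed by -0.20 and was not called. Without the mean of NC 72 h replicates 2 and 3 these counts were 2 and 1, and without NC 24 h replicate 4 there was 1 fall. ATP synthase had 4 that fell of 16, or 25.0% (Atp5g3, Atp5a1, Atp5f1 and Atp5d, at -0.34 to -0.22) and 0 that rose. The carriers and dynamics list had 6 that fell of 38, or 15.8%, among them the adenine nucleotide carrier Slc25a5 (-0.34), the phosphate carrier Slc25a3 (-0.29) and Timm50 (-0.61), and 0 that rose. That count was 3 without NC 24 h replicate 4 or without the mean of NC 72 h replicates 2 and 3. In complexes II to IV 3 rose and 3 fell of 28, and the rises were Cox8b, Cox7a1 and Cox6c, so that 2 of the 3 were the tissue isoforms already named. The 3 rises became 1 without NC 72 h replicate 1, replicate 6 or the mean of 2 and 3, and 5 without replicate 4. Atp5d, Cox6c and Timm50 lost their calls in 14, 12 and 10 of 29 alternatives, among them all without NC 24 h replicate 2, NC 72 h replicate 1 or the mean of NC 72 h replicates 2 and 3. In the tricarboxylic acid cycle list 1 rose and 4 fell of 26. The gene that rose was Mpc1, a subunit of the mitochondrial pyruvate carrier (log2 fold change 0.84 with SE 0.12, adjusted p = 7.33e-04), while its partner Mpc2 changed by -0.16 (adjusted p = 0.112).

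Of the mitochondrially encoded genes, 5 of 13 listed could be tested, and 2 rose. COX1, a catalytic subunit of cytochrome c oxidase, measured 558 to 735.5 RPKM at 24 h, with a median of 677, and 1012, 1030, 744, 772 and 1106 RPKM at 72 h (log2 fold change 0.50 with SE 0.12, adjusted p = 0.0151), and its groups did not overlap. ND4L rose by 0.33 (SE 0.08, adjusted p = 0.0172). In fatty acid oxidation 3 rose (10.7%) and 2 fell (7.14%) of 28 tested, against 4.70% and 4.84% of all genes. The rises were Hadhb, Acaa2 and Decr1, enzymes of the β-oxidation spiral, at 0.52, 0.52 and 0.40, and the falls were Cpt1a and Etfb, at -0.54 and -0.45. Decr1 lost its call in 11 of 29 alternatives, among them without NC 24 h replicate 1, 3, 5 or 6 or a 72 h sample of the larger cluster. In the breakdown of branched-chain amino acids 0 rose and 4 fell (13.8%) of 29. Bcat2, the mitochondrial transaminase that starts it, measured 19.8 to 26.5 RPKM at 24 h, with a median of 24.1, and 13.4, 10.7, 13.9, 12.3 and 11 RPKM at 72 h (log2 fold change -0.93 with SE 0.12, adjusted p = 2.37e-04), with all 72 h samples below those of 24 h. The other falls were those of Ppm1k, Dld and Mcee, and without single samples the count was 2 to 4, with 2 when NC 24 h replicate 2, 4 or 5 or any NC 72 h sample but replicates 4 and 6 was absent.

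Interferon-stimulated genes showed the largest shift of any list. The lists were chosen with earlier results of these data known, so that this rank describes these lists only. Of 56 tested among 57 listed, 47 fell, 1 rose and 8 did not pass the test, whereas 4.84% of all genes fell. The list's median was -1.77, and it was -1.74 in the larger and -1.76 within the smaller cluster. For 37 of the 56 every 72 h sample was below every 24 h sample (4.02% over all genes), and 8 of the 20 largest falls among all genes called were list members. The number called lower was 45 to 47 when a single sample was left out and 41 to 51 under the other alternatives.

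Many such genes are switched on through the interferon-stimulated response element. Its core, TTTC, any 2 bases and TTTC on either strand, was searched in the RefSeq promoters of GRCm38.p6 from 250 bases before to 50 bases after the start. Of 37 list members called lower with a promoter in the table, 19 (51.4%) held it, against 238 of 7827 tested genes (3.04%) and 1131 of 32851 promoters (3.44%). Of 6 such members not called, 1 held it (16.7%). As the list was made of interferon-stimulated genes, its share is no separate support for their fall. Over all genes, 50 of 390 called lower (12.8%) and 12 of 361 called higher (3.32%) held it. A match describes these letters only, not a bound site. The promoters of 3 genes that fell and of B2m, the list member that rose, are shown to place the element, as the 150 bases before the start, 5′ to 3′ on the strand of the gene with matches in capitals. They lie at chr12:26456453-26456602 (minus strand) for Rsad2, chr19:34640739-34640888 (plus strand) for Ifit1, chr4:156200819-156200968 (minus strand) for Isg15 and chr2:122147537-122147686 (plus strand) for B2m.
Rsad2: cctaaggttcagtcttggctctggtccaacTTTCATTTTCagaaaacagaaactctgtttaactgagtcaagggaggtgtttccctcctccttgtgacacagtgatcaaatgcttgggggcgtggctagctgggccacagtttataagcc
Ifit1: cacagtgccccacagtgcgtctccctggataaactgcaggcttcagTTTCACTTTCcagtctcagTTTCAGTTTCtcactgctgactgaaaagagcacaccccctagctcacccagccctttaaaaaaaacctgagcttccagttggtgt
Isg15: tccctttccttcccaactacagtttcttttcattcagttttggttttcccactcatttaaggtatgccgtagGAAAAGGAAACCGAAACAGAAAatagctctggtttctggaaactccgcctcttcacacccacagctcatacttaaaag
B2m: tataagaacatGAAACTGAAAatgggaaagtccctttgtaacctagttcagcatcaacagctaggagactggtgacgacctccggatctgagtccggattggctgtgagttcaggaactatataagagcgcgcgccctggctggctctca
Rsad2 held 1 match, which began 120 bases before the start, Ifit1 held 2, at 104 and 85 bases, and Isg15 held 3 overlapping matches from 78 bases. The match in B2m began 139 bases before the start, so that the element was present also in the gene that moved the other way.

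Among the effectors, Rsad2, whose product viperin blocks viral replication, measured 42.8 to 202.5 RPKM at 24 h, with a median of 119, and 4.12, 11.2, 3.56, 4.59 and 36.8 RPKM at 72 h, a 13.7-fold fall (log2 fold change -3.78 with SE 0.54, adjusted p = 6.39e-04). Every 72 h sample was below the lowest 24 h sample, and NC 72 h replicate 6 stood far above the other 72 h samples. Ifit1, which binds foreign RNA ends, measured 240.5 to 656 RPKM at 24 h, with a median of 465, and 31.3, 82.3, 37.4, 20.8 and 194 RPKM at 72 h, an 8.29-fold fall (log2 fold change -3.05 with SE 0.46, adjusted p = 8.57e-04). Mx1, an antiviral GTPase, measured 0.643, 1.66, 0.556, 1.4 and 7.95 RPKM at 72 h, after 9.14 to 39.9 RPKM at 24 h with a median of 23.8 (log2 fold change -3.73 with SE 0.56, adjusted p = 8.37e-04). In both genes replicate 6 was highest at 72 h but still below every 24 h sample. Isg15, a ubiquitin-like modifier, measured 95.1 to 260.3 RPKM at 24 h, with a median of 192, and 28, 41, 19.2, 11.4 and 58.8 RPKM at 72 h (log2 fold change -2.64 with SE 0.36, adjusted p = 4.04e-04), and Usp18, the protease that removes it and restrains the receptor, 15.7, 29, 20.3, 9.23 and 58.8 RPKM at 72 h, after 115 to 213 RPKM at 24 h with a median of 162 (log2 fold change -2.82 with SE 0.35, adjusted p = 2.18e-04). The chemokine Cxcl10 measured 12.6, 56, 9.76, 12.2 and 118 RPKM at 72 h, after 131 to 633.5 RPKM at 24 h with a median of 332 (log2 fold change -3.62 with SE 0.59, adjusted p = 0.00148). For the whole list, the sample medians relative to the 24 h mean ran from -0.62 to 0.48 on the log2 scale at 24 h and were -1.92, -1.43, -1.89, -2.37 and -1.06 at 72 h. The groups were separate, and replicate 6 was the highest 72 h sample here too.

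The signal carriers fell as well. Stat2, which carries the interferon signal to the nucleus, measured 15.8 to 25.6 RPKM at 24 h, with a median of 21.8, and 6.0, 9.88, 5.63, 4.29 and 14.3 RPKM at 72 h, a 2.85-fold fall (log2 fold change -1.51 with SE 0.26, adjusted p = 0.00221). Every 72 h sample was below every 24 h sample. Irf9, its DNA-binding partner, fell by 0.52 (SE 0.15, adjusted p = 0.0393). Irf7, which amplifies interferon production, measured 95.8, 122, 83.3, 54.8 and 99.95 RPKM at 72 h, after 76.5 to 183 RPKM at 24 h with a median of 147, with overlapping groups and no call (log2 fold change -0.52 with SE 0.24, adjusted p = 0.209). The RNA sensors Ifih1, Ddx58 and Dhx58 fell by 1.99, 1.86 and 1.77 on the log2 scale. The guanylate-binding protein Gbp7 and the immunity-related GTPase Igtp, which are known also as targets of interferon γ, fell by 2.66 and 2.67. Besides Irf7, the members that did not pass were Bst2, Psmb8, Psmb9, Oas2 and Tapbp, at -1.06 to -0.33, and Ly6e and Lgals3bp, at 0.14 and 0.19.

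B2m, the light chain that all class I histocompatibility molecules need, ran against its list. It measured 609 to 1099 RPKM at 24 h, with a median of 943, and 2647, 2740, 2056, 1699 and 2335 RPKM at 72 h, a 2.59-fold rise (log2 fold change 1.37 with SE 0.16, adjusted p = 1.76e-04), and it rose in both clusters (1.34 and 1.53). H2-Q7, a class I heavy chain not on the list, measured 2.28 to 13 RPKM at 24 h, with a median of 6.58, and 70.9, 62.8, 20.3, 13.1 and 48.8 RPKM at 72 h (log2 fold change 2.62 with SE 0.52, adjusted p = 0.00537). Its groups did not overlap, although the margin was small, and it belongs to a family of near-identical genes among which reads may be split. In contrast, H2-T24 fell by 2.41, and Tap1, which carries peptides to class I molecules, fell by 1.20 on the log2 scale.

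**Figure D3:**
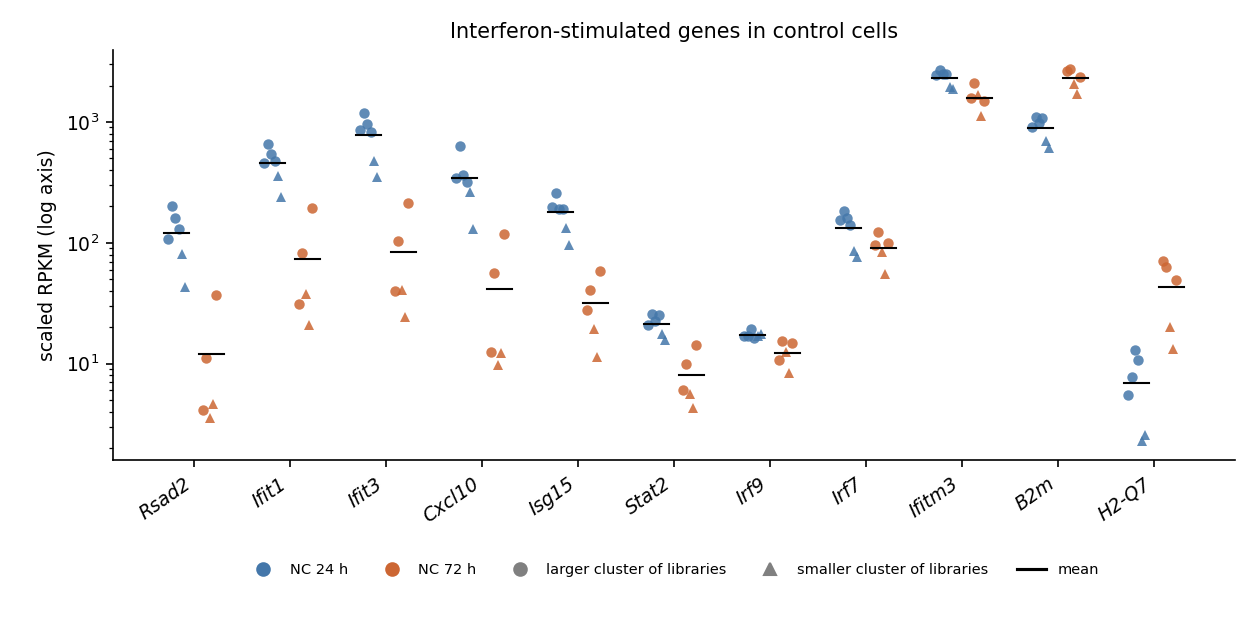
Scaled RPKM on a log axis of interferon-stimulated genes, their signal carriers and B2m in the samples of NC 24 h and NC 72 h, with circles for the larger and triangles for the smaller cluster of libraries and a bar at each mean. Rsad2, Ifit1 and Stat2 lie lower in every 72 h sample, Irf7 overlaps between times and B2m lies higher in every 72 h sample.

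Extracellular matrix genes accounted for many of the rises. Over 4 lists of collagens, basement membrane, glycoproteins and proteoglycans, and proteases with their inhibitors, 118 genes were tested, of which 40 rose and 2 fell. The shares over all genes were 4.70% higher and 4.84% lower. Of 28 tested collagen chains and processing enzymes (32 listed), 12 rose (42.9%) and 0 fell, at a median of 0.56. Col1a1 and Col1a2, the chains of type I collagen, measured 112.5 to 136 RPKM at 24 h, with a median of 125, and 230.2, 253, 155, 151 and 210.5 RPKM at 72 h for Col1a1 (log2 fold change 0.64 with SE 0.13, adjusted p = 0.00547) and 295 to 348 RPKM at 24 h, with a median of 326, and 611, 633, 473, 406 and 576 RPKM at 72 h for Col1a2 (log2 fold change 0.72 with SE 0.11, adjusted p = 7.47e-04). No sample of one time reached the other in either gene, and the 2 samples of the smaller cluster were lowest at 72 h. Within clusters Col1a1 changed by 0.88 in the larger and 0.30 in the smaller. Lox, which cross-links collagen, measured 40.3, 44.1, 57.7, 87.2 and 40.9 RPKM at 72 h, after 18.7 to 25.3 RPKM at 24 h with a median of 21.2 (log2 fold change 1.25 with SE 0.18, adjusted p = 6.39e-04), and here the samples of the smaller cluster were highest. Col12a1, Col8a2, Col16a1, Bmp1, which cleaves procollagen, and Loxl2 rose by 1.22, 1.33, 0.99, 0.96 and 0.86. Col8a2 lost its call in 19 of 26 alternatives, among them without any 1 sample but NC 24 h replicate 6 and the mean of NC 72 h replicates 2 and 3. Bmp1 lost it in 8 of 29, among them without NC 24 h replicate 1 or 4 or a 72 h sample of the larger cluster, and Loxl2 in 7, among them without NC 24 h replicate 5 or 6 or a 72 h sample of the larger cluster. In the smaller cluster Bmp1 changed by 0.08. Among type VI chains, Col6a1 rose by 0.30, and Col6a2 and Col6a3 changed by 0.02 and -0.11 (adjusted p = 0.915 and 0.432). The number of collagen genes called was 8 to 12 without single samples, 17 in the larger cluster alone and 2 in the smaller.

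Of 36 tested glycoproteins and proteoglycans (44 listed), 15 rose (41.7%) and 1 fell (2.78%), at a median of 0.53. The shares over all genes were 4.70% and 4.84%. Olfml3, an olfactomedin-like secreted protein, measured 24.5 to 29.2 RPKM at 24 h, with a median of 26.3, and 60.5, 64.5, 70.1, 53.2 and 56.9 RPKM at 72 h (log2 fold change 1.19 with SE 0.09, adjusted p = 8.60e-06). Fbln2, which binds fibronectin and basement membrane proteins, measured 59.2 to 70.8 RPKM at 24 h, with a median of 64.4, and 152, 140.4, 121, 125 and 124 RPKM at 72 h (log2 fold change 1.03 with SE 0.09, adjusted p = 1.91e-05), and the proteoglycan biglycan, Bgn, 479, 528, 726.5, 592 and 465 RPKM at 72 h, after 244 to 324 RPKM at 24 h with a median of 248 (log2 fold change 1.04 with SE 0.12, adjusted p = 1.53e-04). In all of them the groups were separate in both clusters. Tgfbi, Spp1 (osteopontin) and Ltbp2 rose by 2.38, 1.99 and 1.32, and Fn1, fibronectin, by 0.63 (SE 0.10, adjusted p = 0.00148). Sparc, a collagen-binding protein, measured 1995, 2218, 1998, 1855 and 1920 RPKM at 72 h, after 1205 to 1389 RPKM at 24 h with a median of 1243 (log2 fold change 0.65 with SE 0.06, adjusted p = 6.31e-05). Lum, a small proteoglycan that spaces collagen fibrils, was the member that fell, with 25.2 to 37.2 RPKM at 24 h, with a median of 29, and 9.86, 11.3, 19.6, 21 and 20.6 RPKM at 72 h (log2 fold change -0.90 with SE 0.20, adjusted p = 0.0119). Its fall was -1.26 in the larger and -0.31 within the smaller cluster.

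Among 32 tested matrix proteases and inhibitors (42 listed), 11 rose (34.4%) and 1 fell (3.1%), at a median of 0.47. The shares over all genes were 4.70% and 4.84%. Mmp11 measured 4.72 to 8.01 RPKM at 24 h, with a median of 5.42, and 17.3, 19.7, 20.4, 20.3 and 14.8 RPKM at 72 h (log2 fold change 1.65 with SE 0.16, adjusted p = 5.68e-05), with no overlap. The inhibitors Timp1 and Timp3 rose as well. Timp1 measured 1850, 2668, 1340, 998 and 1804 RPKM at 72 h, after 648 to 924 RPKM at 24 h with a median of 759.6 (log2 fold change 1.11 with SE 0.19, adjusted p = 0.00221), and Timp3 rose by 1.54. Adamts5, Serpine2, Mmp23 and Htra1 rose by 1.05, 1.05, 0.92 and 0.87, and Adamts9 fell by 0.94 on the log2 scale, a call lost without any 1 of NC 24 h replicates 2 to 5 or of the 72 h samples. The basement membrane list had 2 that rose (9.09%), Sparc and Col4a5, and 0 that fell of 22 tested of 37, with a median of 0.02. When 1 sample was left out, 1 rise was called, except without NC 24 h replicate 2 or NC 72 h replicate 6, where 2 were. Its core components Col4a1, Col4a2, Lamc1 and Nid1 were between -0.07 and 0.05.

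**Figure D4:**
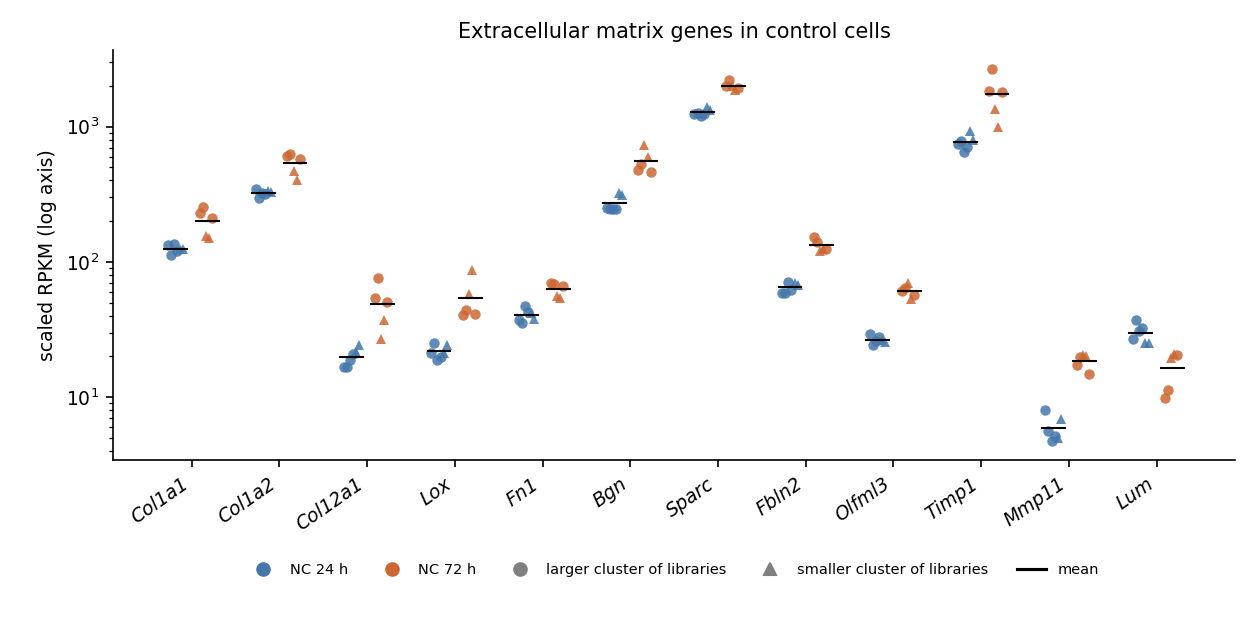
Scaled RPKM on a log axis of 12 extracellular matrix genes in the samples of NC 24 h and NC 72 h, with circles for the larger and triangles for the smaller cluster of libraries and a bar at each mean. All genes but Lum lie higher at 72 h, and the samples of the smaller cluster are lowest at 72 h for Col1a1 and Timp1 and highest for Lox and Bgn.

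Markers of stromal cells and preadipocytes were mixed, with 5 that rose (17.2%) and 2 that fell (6.90%) of 29 tested (45 listed). The shares over all genes were 4.70% and 4.84%. Thy1, a surface protein of mesenchymal cells, measured 26.6, 37.1, 47.7, 38.1 and 34.4 RPKM at 72 h, after 18.9 to 24.9 RPKM at 24 h with a median of 22.1 (log2 fold change 0.73 with SE 0.14, adjusted p = 0.00347). Sfrp2, a secreted modulator of Wnt signals, measured 301.5, 317.5, 108, 118 and 216 RPKM at 72 h, after 80.8 to 87.9 RPKM at 24 h with a median of 84.2 (log2 fold change 1.19 with SE 0.25, adjusted p = 0.0071), with much higher values in the larger cluster. Wnt5a, F3 and Sox9 rose by 1.22, 0.84 and 0.38, and Lum and Mest fell by 0.90 and 1.12. Only 1 of these 2 falls was called without any 1 sample except NC 24 h replicate 2 and NC 72 h replicate 6. Pdgfra and Pdgfrb, the receptors that mark fat progenitors, changed by 0.38 and 0.25 (adjusted p = 0.295 and 0.294). The summed level of 8 fibroblast and progenitor markers was 1020 to 1700 RPKM at 24 h and 934 to 2440 RPKM at 72 h, so that the ranges overlapped. The median of the tested markers moved with the clusters, at -0.21 to 0.16 relative to the 24 h mean at 24 h, 0.63, 0.97 and 0.66 in the 72 h samples of the larger cluster and -0.18 and -0.28 in those of the smaller. Dcn, the proteoglycan decorin, measured 474.5, 735, 238, 202.5 and 524 RPKM at 72 h, after 241.5 to 345 RPKM at 24 h with a median of 305 (log2 fold change 0.39 with SE 0.27, adjusted p = 0.438), and Col3a1 measured 415, 482, 217, 202.5 and 394 RPKM at 72 h, after 221 to 255 RPKM at 24 h with a median of 252 (log2 fold change 0.39 with SE 0.20, adjusted p = 0.259). Both were above every 24 h sample in the larger cluster and below every one in the smaller, and neither was called. The part of such cells in the rise of matrix genes was not tested. Among 37 tested genes of adipogenic and antiadipogenic signalling (67 listed), 8 rose (21.6%) and 4 fell (10.8%). The rises included Fstl3, an inhibitor of activin, at 1.31 and Dkk3 at 1.25, besides Ncam1, Wnt5a and Sfrp2, and the falls were Notch1 at -1.26, Fgfr2 at -1.24, Id1 at -0.60 and Fgf10 at -0.56. Dkk3 lost its call in 16 of 29 alternatives, among them without NC 24 h replicate 1, 2, 3 or 6 or any 72 h sample but the mean of replicates 2 and 3. Only 1 of the 4 fell without the mean of NC 72 h replicates 2 and 3, and 2 did so without NC 24 h replicate 5 or 6 or NC 72 h replicate 1.

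The rises of secreted acute-phase and complement proteins differed in size between the clusters of libraries. Hp, haptoglobin, measured 61.8 to 104.5 RPKM at 24 h, with a median of 72.7, and 849, 1262, 82.5, 87.1 and 979 RPKM at 72 h (log2 fold change 2.29 with SE 0.65, adjusted p = 0.0405). The 3 samples of the larger cluster were far above the 24 h level and the 2 of the smaller cluster were within its range or near it, with changes of 3.69 and 0.23 on the log2 scale, and the call was lost in 16 of 29 alternatives, among them without any 1 of the 24 h samples or of the 72 h samples of the larger cluster. Lrg1, a leucine-rich glycoprotein of the acute phase, measured 109.7, 124, 19, 14.2 and 104 RPKM at 72 h, after 4.85 to 12.5 RPKM at 24 h with a median of 9.91 (log2 fold change 2.57 with SE 0.54, adjusted p = 0.00764), and Serping1, the inhibitor of complement component 1, 356.5, 459.6, 84.6, 73.9 and 330.1 RPKM at 72 h, after 42.5 to 85.6 RPKM at 24 h with a median of 80.2 (log2 fold change 1.57 with SE 0.44, adjusted p = 0.0377). In both genes the 3 samples of the larger cluster were far above the 2 of the smaller. Lrg1 changed by 3.35 in the larger cluster and 1.57 in the smaller, was above every 24 h sample in every 72 h sample and kept its call in all 29 alternatives. Serping1 changed by 2.20 and 0.77 and lost its call in 11 of 29 alternatives, among them without any 1 of the 24 h samples or of the 72 h samples of the larger cluster. Igfbp3, a carrier of insulin-like growth factors, rose by 1.77 (2.31 and 1.08). Of 11 tested complement genes (25 listed) 2 rose (18.2%), against 4.70% of all genes, and 11 of 11 fold changes were above 0. Their median was 0.83, or 1.11 in the larger and 0.39 in the smaller cluster. The count was 0 without any 1 of the 24 h samples or of NC 72 h replicates 1 and 6 or the mean of 2 and 3, and 8 in the larger cluster alone. Wt1, which marks mesothelial cells and some visceral fat progenitors, moved in the same samples, with 8.3, 11.8, 0.889, 1.15 and 5.4 RPKM at 72 h, after 0 to 0.572 RPKM at 24 h with a median of 0.271 (log2 fold change 3.47 with SE 0.67, adjusted p = 0.00473), while the mesothelial genes Msln and Upk3b were at 0 in every sample and Krt19 changed by 0.04. Wt1 lost its call in 1 of 27 alternatives, the one with voom on recovered reads. Its 24 h values lay near the limit of detection given for a 2 kb transcript. A gene was tested when 5 samples held enough reads, so that the 72 h group alone could admit it. The part of Wt1 in these rises was not tested.

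Among 42 tested adipokines and secreted factors (55 listed), 10 rose (23.8%) and 5 fell (11.9%), at a median of 0.23. The shares over all genes were 4.70% and 4.84%. Besides the genes already named, Gpx3, an extracellular glutathione peroxidase, C1qtnf1, Igfbp7 and Igf1 rose by 1.49, 1.25, 0.84 and 0.62. Igfbp5, Nampt, Fgf10 and Apoe fell by 1.57, 0.67, 0.56 and 0.32 on the log2 scale. Rbp4, Retn and Angptl4 were not called, at 0.19, -0.08 and 0.09.

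The circadian clock had 3 genes that rose and 1 that fell (6.67%) of 15 tested (19 listed), against 4.70% and 4.84% of all genes. Nr1d1, a repressor of the clock, measured 0.83 to 1.63 RPKM at 24 h, with a median of 1.26, and 3.83, 3.5, 4.28, 2.71 and 2.98 RPKM at 72 h (log2 fold change 1.36 with SE 0.21, adjusted p = 0.00102). Per3 and Nr1d2, which belong to the repressing arm as well, rose by 0.67 and 0.77, and Cry1, also a repressor, fell with 1.38, 0.925, 1.24, 0.695 and 0.79 RPKM at 72 h, after 1.58 to 2.68 RPKM at 24 h with a median of 2.22 (log2 fold change -1.04 with SE 0.23, adjusted p = 0.0109). Nr1d2 lost its call in 16 of 29 alternatives, among them without any 1 of NC 24 h replicates 2 to 5 or of the 72 h samples but replicate 4. The groups of Nr1d1 and of Cry1 did not overlap. Arntl and Clock, the activators, changed by -0.43 and -0.32 (adjusted p = 0.228 and 0.401). The harvest times lie a whole number of days apart, and the hour of the day was not given.

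Of 57 tested cell cycle genes (60 listed), 1 rose (1.75%) and 3 fell (5.26%). Over all genes 4.70% rose and 4.84% fell, so that the share of falls was near that of all genes. In sign, 48 fold changes were below 0 and 9 above. The list's median was -0.24. That median was -0.49 in the larger and 0.02 within the smaller cluster. The genes that fell were the inhibitors Cdkn1c and Cdkn2c and the cyclin Ccnd2, at -1.53, -0.86 and -0.58, and the gene that rose was the inhibitor Cdkn1b, at 0.45. Mki67, the proliferation antigen, measured 0.654, 0.65, 1.69, 1.58 and 0.608 RPKM at 72 h, after 0.487 to 1.72 RPKM at 24 h with a median of 0.867 (log2 fold change 0.09 with SE 0.35, adjusted p = 0.91). In the larger cluster alone 11 members fell, in the smaller alone 2, and with the cluster as a term 8. Without NC 72 h replicate 4 there were 6.

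In the lysosome list 9 rose (21.95%) and 2 fell (4.88%) of 41 tested (44 listed), against 4.70% and 4.84% of all genes. Among the rises were the proteases Ctsh, Ctsa and Ctsl and the glycosidase subunit Hexa, at 0.71, 0.58, 0.58 and 0.46. Ctsc and the proton pump subunit Atp6v1b2 fell by 0.98 and 0.47 on the log2 scale. Only 1 of these 2 was called without any 1 of the 24 h samples or of the 72 h samples of the larger cluster. Of 45 tested antioxidant genes (48 listed) 5 rose and 9 fell, and 8 rose without NC 72 h replicate 5. The rises were the secreted enzymes Gpx3 and Sod3, Gpx8 and Gpx7 of the endoplasmic reticulum, and Gstm2, at 1.49, 0.72, 0.54, 0.48 and 0.54. The falls included Nqo1, Gstt1, Gstm1, Ftl1, Sod1 and Prdx1, at -0.85, -0.76, -0.59, -0.44, -0.35 and -0.28. Nqo1 lost its call in 10 of 29 alternatives, among them without any 1 of NC 24 h replicates 1 to 5 or of the 72 h samples of the larger cluster. The integrated stress response had 4 rises (11.1%) and 3 falls (8.33%) of 36 tested. Nupr1, Ddit4, Trib3 and Ddit3, which respond to stress or block growth, rose by 1.27, 1.24, 0.87 and 0.51, and Psat1 and Cth, of serine and cysteine synthesis, and the chaperone Hspa5 fell by 0.62, 0.92 and 0.27. Atf4 itself changed by 0.09 (adjusted p = 0.618).

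The other lists had up to 7 calls each, to be read against the 4.70% of all genes that rose and the 4.84% that fell. Endoplasmic reticulum and secretion had 3 rises (7.5%) and 4 falls (10%) of 40 tested, the falls being the chaperones Calr, Pdia6, Hsp90b1 and Hspa5. Insulin signalling and glucose use had 3 rises, Trib3, the lactate transporter Slc16a1 and Pkm, and 1 fall, Ldhb, of 34, and glucocorticoid targets had 1 rise and 4 falls (15.4%) of 26. Lipolysis and adrenergic signalling had 1 rise and 2 falls of 24, contractile and SRF or YAP target genes 0 and 2 of 31, early adipogenic factors and Krüppel-like factors 0 and 2 of 43, and peroxisomal genes 1 and 1 of 41. Creatine and calcium cycling had 0 calls among 5 tested of 16 listed. Among imprinted genes 1 rose (8.33%) and 3 fell (25.0%) of 12, and the fall of Cdkn1c was the largest. These small counts depended on single samples. Without NC 72 h replicate 1 or 6 there was 1 rise for insulin signalling, and without replicate 4 there were 5. The falls of glucocorticoid targets were 2 without NC 24 h replicate 1, 4, 5 or 6 or a 72 h sample of the larger cluster, and the rises were 3 without NC 72 h replicate 4 or 5. Endoplasmic reticulum and secretion had 5 rises without NC 72 h replicate 5. Imprinted genes had 1 fall without any 1 sample except NC 24 h replicates 2 and 3 and NC 72 h replicate 6, and 0 rises without NC 24 h replicate 1, 2, 3 or 6 or any 72 h sample but replicate 6. Lipolysis had 1 fall without 1 of NC 24 h replicates 2 to 5 or any 72 h sample but replicate 6 and 0 rises without that replicate, and the early factors had 1 fall without NC 24 h replicate 1, 3 or 4 or the mean of NC 72 h replicates 2 and 3. The peroxisomal rise was lost without NC 24 h replicate 5 or 6 or a 72 h sample of the larger cluster, and the fall without 1 of NC 24 h replicates 1 to 4 or any 72 h sample but replicate 4. Of 12 tested long noncoding RNAs (28 listed) 3 rose (25.0%) and 0 fell. Malat1 measured 463, 466.5, 514, 563 and 427 RPKM at 72 h, after 312 to 399 RPKM at 24 h with a median of 348 (log2 fold change 0.47 with SE 0.08, adjusted p = 0.00264), with separate groups, and Snhg5 and Meg3 rose by 0.87 and 0.80. Meg3 lost its call in 17 of 29 alternatives, among them without NC 24 h replicate 1, 2, 3 or 6 or any 72 h sample but replicate 6.

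Ctcflos, the target of the oligonucleotide in the other arm, was low in control cells. Its RefSeq transcript measured 0.741 ± 0.515 RPKM (SD, n = 6) at 24 h and 1.23 ± 0.408 RPKM (SD, n = 5) at 72 h, as deposited (two-sided exact permutation p = 0.123). The Ensembl entry of transcript 1, on which the study concentrated, measured 0.402 ± 0.232 RPKM at 24 h and 1.38 ± 0.932 RPKM at 72 h (SD, two-sided exact permutation p = 0.0346). Over 6 table entries of the gene, some of which describe the same transcript, 0 passed after adjustment. The lowest exact permutation p was 0.0346 (adjusted 0.104), where the design allows 0.00217. In limma the change was 0.90 (SE 0.44, adjusted p = 0.244).

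**Figure D5:**
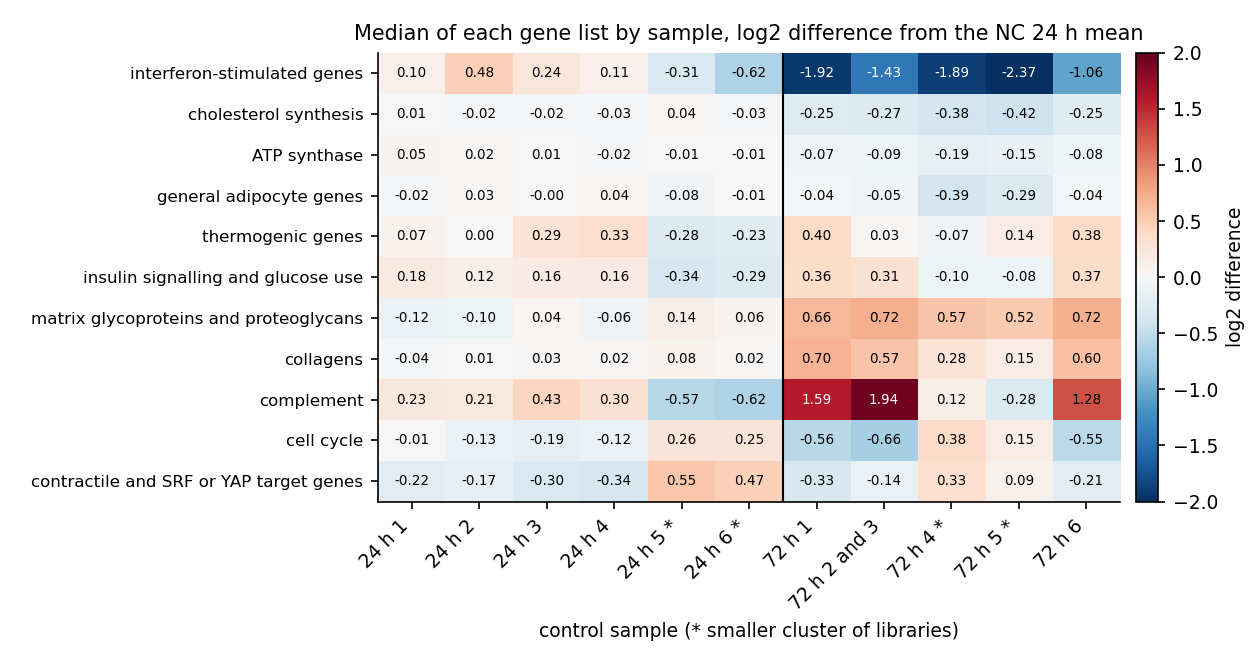
Heat map of the median log2 difference from the NC 24 h mean over the tested members of selected lists (vertical axis) in each control sample (horizontal axis), with an asterisk at samples of the smaller cluster. Interferon-stimulated genes are at -1.06 to -2.37 in every 72 h sample, and complement genes are at 1.28 to 1.94 in the 72 h samples of the larger cluster and at 0.12 and -0.28 in those of the smaller.

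Whether control cells changed differently from KD cells over the same time was tested by an interaction term over all 4 groups. It was past the threshold for 44 of 12669 genes (0.347%), of which 32 had a change in KD above that in NC and 12 below. Without the scaling between samples there were 216, with 209 above and 7 below, and with scaling there were 2, 3 and 9 without replicates 1, 2 and 3 in turn, so that the count depended on these libraries. Of the 1070 genes called in control cells, 14 were among the 44. Those with the smallest p-values were Ifi27l2b, of a family of interferon-inducible genes, the aldo-keto reductase Akr1b3, Cdkn1c, Arc and Septin9, whose symbol the table holds as a date. In control cells these fell by 1.53, 0.71, 1.53, 2.13 and 0.77 on the log2 scale. None of 56 interferon-stimulated genes tested by limma passed the interaction, 14 had an unadjusted p under 0.05, and the lowest adjusted p was 0.0610. The list's median difference, KD minus NC, was 0.45, and 4 members passed with the cluster as a term and 3 without the scaling between samples.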

How the data were processed

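Poly(A) RNA of 24 samples was sequenced at its 3′ ends after bulk barcoding and tagmentation, per the labels and the methods of the study. Mapping by the authors used the Genomatix suite, whose version and genome build are not given in the sources used here, and their comparisons were tested with DESeq2. The table deposited by the authors gives RPKM with decimal commas for 168326 GenBank, Ensembl and RefSeq entries, which overlap, in 24 columns, and 0 columns belonged to no sample. Of values worth up to 20 reads, 93.6% to 94.2% per library were whole multiples of what 1 read is worth (within 0.02 reads plus 0.2%), from which entry lengths and library totals were recovered. In NC 72 h replicate 6 this held for 74.6% at the full step, since many of its values lay midway between steps. Its total is that at the full step. Statements on depth cover counting error only.

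For each of 52087 symbols the entry with the highest mean over the 24 libraries was kept, RefSeq entries first, of which there were 22466. Genes entered when at least 5 samples reached the worth of 10 reads, or 1 RPKM where no length was recovered. A gene could thus enter through the samples of a single group. RPKM were scaled by a trimmed mean of log ratios (30% and 5% trimmed) and fitted as log2(RPKM + 0.1), so that fold changes of low genes are understated, with limma 3.58.1 in R 4.3.3 (lmFit, then eBayes with trend = TRUE) on the control samples. Calls are two-sided at a Benjamini-Hochberg adjusted p of limma under 0.05. KD and NC were compared by an interaction term over all groups, and Ctcflos entries by exact permutation tests. The scripts were tested on simulated data. Tests within the clusters, by other scalings, pseudocounts, filters and entries, with voom on recovered reads, with a replicate block and without single samples served as alternatives.

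Members and gene lists were chosen with earlier results of these data known. Named genes are the 10 largest rises and falls above 5 RPKM with separate groups, up to 6 called members with the largest change in each list, 20 genes listed by name (such as Ucp1, Prdm16, Pparg and Mki67), the 5 smallest p-values each way, and 5 genes past the interaction. Other list members were named after their values were seen. Promoters came from RefSeq (GRCm38.p6). Some genes of the lists are counted but not reported by name.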

Additional observations from a re-analysis of the deposited data

Results flagged for a closer look

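Some values stood apart from the other samples of their group, by more than 19 in 20 groups of that size would show. Chance picks out about 1 in 20 groups, and 9 of 184 were picked here, so that each is given as a value only. The gap of that sample to its nearest neighbour, as a share of the group's range, is given in each case. Rsad2 and Mx1 were highest in NC 72 h replicate 6, at 36.8 RPKM against 3.56 to 11.2 (gap 0.77) and 7.95 RPKM against 0.556 to 1.66 (gap 0.851). The median of the adipogenic and antiadipogenic signals was highest in the same sample, at 0.20 against 0.00 to 0.06 on the log2 scale (gap 0.718). Pck1 was highest in NC 72 h replicate 5, at 12.9 RPKM against 6.64 to 7.42 (gap 0.875), and Arc in NC 72 h replicate 4, at 2.45 RPKM against 0.681 to 1.11 (gap 0.755). At 24 h, Fabp4 and Bdh2 were highest in replicate 2, at 44700 RPKM against 42080 to 42970 (gap 0.662) and 15.4 RPKM against 8.87 to 10.9 (gap 0.695), 4631405J19Rik was highest in replicate 4, at 4.08 RPKM against 0.512 to 1.78 (gap 0.645), and Ncam1 was lowest in replicate 5, at 10.9 RPKM against 12.5 to 13.1 (gap 0.713).

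For 7 named genes the change over time differed between KD and NC by limma's interaction test, in levels scaled over all groups (mean ± SD, n = 6 in all groups but NC 72 h with n = 5). Ifi27l2b went from 8.87 ± 1.85 to 3.19 ± 1.45 RPKM in NC and from 10.7 ± 2.73 to 72.3 ± 35.8 RPKM in KD, a difference of 4.09 on the log2 scale. Akr1b3 went from 11.5 ± 1.58 to 7.08 ± 1.64 RPKM in NC and from 24.2 ± 9.65 to 62.8 ± 14.0 RPKM in KD (difference 2.16). Igfbp5 went from 8.03 to 2.58 RPKM in NC and from 2.38 to 3.33 RPKM in KD (difference 2.08), Arc from 5.42 to 1.24 RPKM and from 7.18 to 6.21 RPKM (difference 1.99), and Cdkn1c from 9.25 to 3.48 RPKM and from 10.8 to 14.5 RPKM (difference 1.92). Septin9 (Sep 09 in the table) went from 25.3 to 14.9 RPKM in NC and from 23.1 to 23.3 RPKM in KD (difference 0.79). COX1 went from 694 to 987 RPKM in NC and from 489.9 to 412 RPKM in KD, a difference of -0.75.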

How the results depend on the processing

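The number of genes called between NC 24 h and NC 72 h was 1070, and it was 666 or 591 with a replicate block (the averaged sample standing as number 2 or 3), 1667 with the cluster of libraries as a term, 460 in the smaller cluster alone and 4805 when all overlapping entries were tested. Fewer samples were fitted in the smaller cluster alone, and more entries when all were tested. The cause of these differences in count was not tested. Leaving out 1 sample gave 810 to 1063, and other scalings, pseudocounts, filters, voom on recovered reads, robust estimation and the fit of all 4 groups gave 734 to 1125. With NC 72 h replicates 2 and 3 as separate samples there were 1455, and 1068 with replicate 3 left out. Whether replicate numbers pair the samples is not stated. The deviations of same-numbered control samples correlated at 0.047 on average (-0.271 to 0.289), which cannot settle it with so few samples. The block thus removes degrees of freedom without a known pairing. The number of genes whose change differed between KD and NC was 44, and it was 216 without scaling between samples, which moved the median difference over all genes from 0.02 to 0.17, 87 with a pseudocount of 1, 19 with a replicate block, 168 with the cluster as a term and 2 to 50 without 1 replicate number (2, 3, 9 and 28 without numbers 1 to 4 in turn). Ctcflos had 0 entries called, also with NC 72 h replicates 2 and 3 as separate samples. Of 192 named genes, 181 were called and 60 of these kept the call in every alternative. Over 5548 pairs of gene and alternative, 4859 stayed on their side of the threshold, 679 lost the call, 10 gained it and 0 changed direction. Depth limits what can be said of low genes such as Ctcflos and Lep.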
